A study of Mus musculus with 9 samples.

Results

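The Xin-repeat genes *Xirp1* and *Xirp2* were examined together with 8 genes of the intercalated disc, *Nrap*, *Cdh2*, *Ctnna3*, *Dsp*, *Pkp2*, *Jup*, *Dsg2* and *Dsc2*, in whole mouse hearts at postnatal day 2. The 10 genes were chosen by name, in part because *Xirp2* was already known from these arrays to be low in both mutants, and they were 10 of 22180 genes on the array. A gene was read from a probe set that is annotated to that symbol alone, and of several such probe sets the brightest on average was used. All 10 genes had such a probe set, 3 of them had 2, and no filter on low values was applied.

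Hearts came from 3 genotypes on a mixed 129 x C57BL/6 background, with 3 arrays per genotype. Wild-type hearts are numbered 1, 2 and 3, *miR-1-1* null hearts 4, 5 and 6, and double-heterozygous hearts (*miR-1-2* +/-: *miR-1-1* +/-) 7, 8 and 9. *miR-1* is a muscle microRNA encoded by 2 loci, and in null hearts the *miR-1-2* locus was not targeted. The *miR-1-1* allele replaces the hairpin with a neomycin cassette in every cell of the animal, and *miR-133a*, which is transcribed in the same cluster, may be affected by the same allele. An effect on *miR-133a* and the loss of *miR-1* cannot be told apart in these arrays. The files give log2 expression values, in which a difference of 1 is a factor of 2 and values of different probe sets are not comparable with each other. Nothing in the labels says whether an array stands for 1 animal, so the tests measure the spread between arrays.

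The intercalated disc is the end-to-end junction of cardiomyocytes. There, N-cadherin binds the cadherins of the neighbouring cell and is tied through catenins to actin, while desmosomes link desmin filaments through desmoglein, desmocollin, plakophilin, plakoglobin and desmoplakin. The Xin proteins carry repeats that bind and bundle actin filaments and sit where myofibrils meet the disc. In the mouse, loss of Xin proteins is known to disturb the maturation of the disc after birth, when junctions that first lie all around the cell collect at its ends.

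The promoters of *Xirp2* and *Nrap* are shown because these were the members whose levels lay farthest below wild-type in both mutants. Each stretch holds 100 bases upstream of the transcription start, from 130 to 31 bases before it, in RefSeq's GRCm38.p6 sequence, read 5′ to 3′ along the gene. Capitals mark a match to the binding motif of MEF2, a muscle transcription factor.
*Xirp2* (chr2:67445872-67445971, + strand): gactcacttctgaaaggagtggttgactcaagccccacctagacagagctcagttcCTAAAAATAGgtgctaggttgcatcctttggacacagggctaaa
*Nrap* (chr19:56390069-56390168, - strand): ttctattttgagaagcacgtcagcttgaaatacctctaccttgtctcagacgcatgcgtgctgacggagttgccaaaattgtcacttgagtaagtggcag

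The match in *Xirp2* starts 74 bases before the start site. RefSeq windows from 250 bases before to 50 bases after the start were at hand for 5 members (*Xirp2*, *Nrap*, *Ctnna3*, *Dsp* and *Jup*), in 7 windows, and were searched on both strands. The MEF2 motif matched in 1 of these windows, that of *Xirp2*, and in 1047 of all 32851 windows (3.19%). The CArG box, which binds serum response factor, matched in none of the 7 and in 535 of all windows (1.63%), so no second motif overlapped the match in *Xirp2*. These matches describe letters in a window, not bound sites.

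*Xirp2* encodes a large actin-binding Xin-repeat protein of striated muscle. Its log2 levels were 4.04, 4.26 and 3.95 in wild-type hearts 1 to 3, 3.46, 2.51 and 2.37 in null hearts 4 to 6, and 2.54, 3.03 and 2.85 in double-heterozygous hearts 7 to 9. All 6 mutant arrays lay below all 3 wild-type arrays, and null heart 4 stood closest to wild-type. The means were 4.08 ± 0.16, 2.78 ± 0.59 and 2.81 ± 0.25 (SD, n = 3 each), which put null hearts at a log2 fold change of -1.30 (standard error 0.26) and double-heterozygous hearts at -1.28 (0.26), or 0.406 and 0.413 times the wild-type level. The wild-type arrays are common to both comparisons. Because these values led to the choice of the gene, they are given as a description with no test. The probe set is dim on these arrays. As a gauge of the low end, the upper quartile of 1394 olfactory and vomeronasal receptor genes, a class silent in most tissues, was 1.74 in wild-type, 1.78 in null and 1.95 in double-heterozygous hearts.

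The double-heterozygous and null hearts gave *Xirp2* values that overlapped fully. Their difference was 0.03 (standard error 0.26), given without a test because the gene was chosen for being low in both. Leaving out null heart 4 brought it to 0.37, and leaving out null heart 6 to -0.18.

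The other probe set for *Xirp2* read 3.20, 4.19 and 4.63 in wild-type, 2.54, 2.14 and 2.80 in null and 2.96, 2.51 and 2.71 in double-heterozygous hearts. Wild-type heart 1 was the lowest of its genotype here, but every mutant array again lay below all wild-type arrays, with log2 fold changes of -1.51 and -1.28 (standard error 0.33 each). The sources used here do not say where in the transcript each probe set lies.

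*Xirp1*, which encodes the founding Xin protein and binds beta-catenin at the disc, differed little between genotypes. Its levels were 6.90, 6.82 and 6.84 in wild-type, 6.72, 6.51 and 7.12 in null and 6.79, 6.60 and 6.80 in double-heterozygous hearts. The null arrays spanned the wild-type values on both sides, and the 3 double-heterozygous arrays lay just below the lowest wild-type array. The log2 fold change was -0.07 (standard error 0.15, 95% confidence interval -0.39 to 0.26) in null and -0.12 (0.15, interval -0.45 to 0.20) in double-heterozygous hearts, with limma adjusted p-values of 0.971 and 0.794. Within each array, *Xirp2* minus *Xirp1* was lower in every mutant heart (-4.74 to -3.26) than in every wild-type heart (-2.89 to -2.55). A difference within arrays does not say that *Xirp1* itself was constant.

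**Figure D1:**
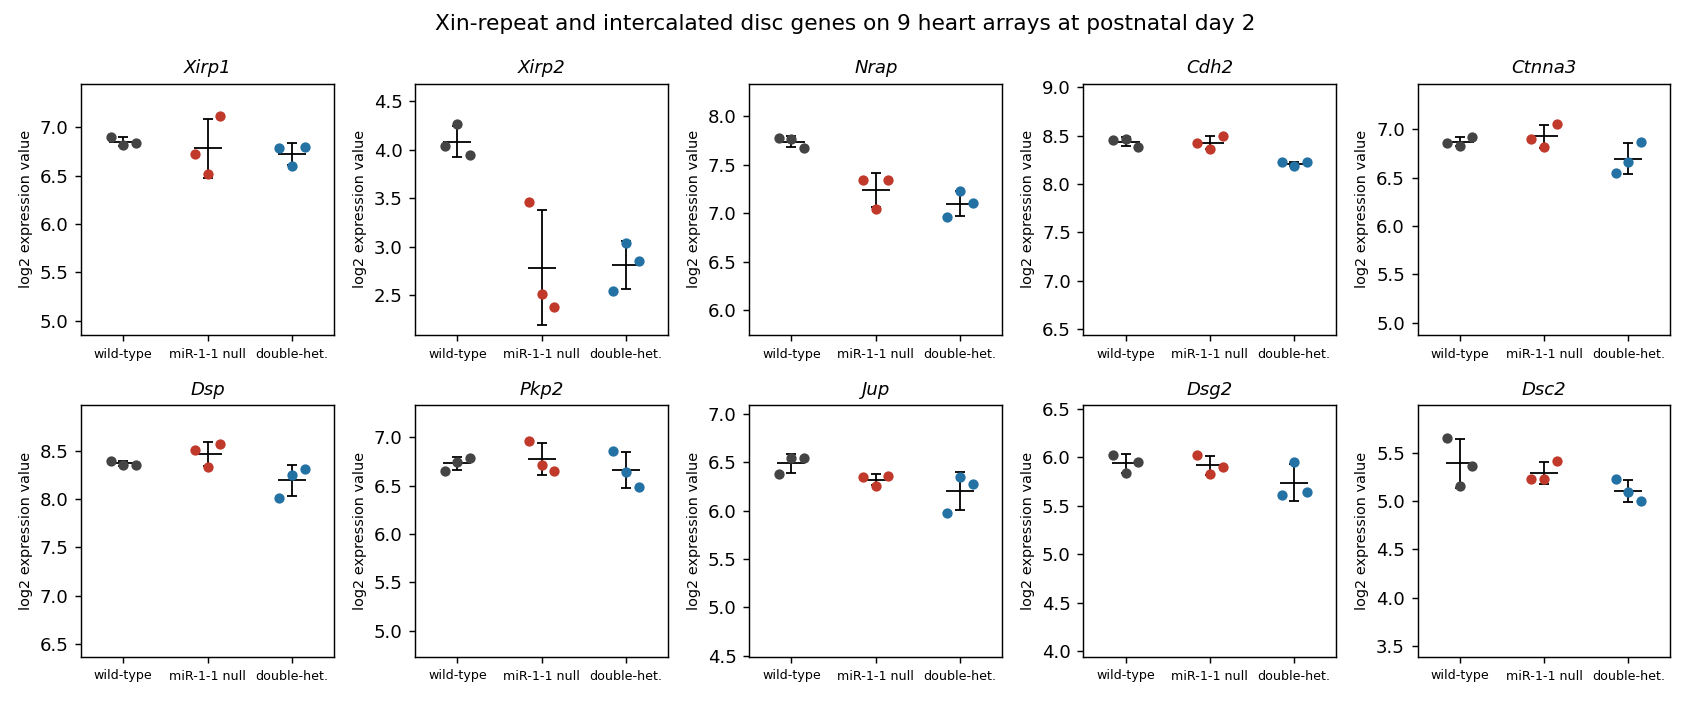
Log2 expression values (vertical axis) of the 10 genes in each of 9 arrays, by genotype, with black bars for the mean ± SD of 3 arrays. Every panel spans the same log2 range around its wild-type mean, and the mutant arrays lie below all wild-type arrays for *Xirp2* (2.37 to 3.46 against 3.95 to 4.26) and *Nrap* (6.96 to 7.34 against 7.67 to 7.78).

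*Nrap* encodes the nebulin-related anchoring protein, an actin-binding LIM protein that assembles thin filaments and joins them to the disc. Its levels were 7.78, 7.77 and 7.67 in wild-type, 7.34, 7.04 and 7.34 in null and 6.96, 7.22 and 7.11 in double-heterozygous hearts. No mutant array reached the lowest wild-type array, and the lowest wild-type and highest mutant values were 7.67 and 7.34. The log2 fold change was -0.50 (standard error 0.11, 95% confidence interval -0.76 to -0.24) in null hearts and -0.64 (0.11, interval -0.90 to -0.38) in double-heterozygous hearts, or 0.708 and 0.641 times wild-type. The limma p-values were 0.00165 and 2.87e-04 before adjustment and 0.702 and 0.133 after adjustment over all genes, so neither passed the threshold. Neither fold met the lower fold the study asked of a gene, 0.5. Between the mutants the difference was -0.14 (0.11, adjusted p = 0.805).

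Read within arrays, *Nrap* was also low against other heart transcripts. *Nrap* minus *Xirp1* was 0.88, 0.95 and 0.83 in wild-type, 0.61, 0.53 and 0.22 in null and 0.17, 0.63 and 0.31 in double-heterozygous hearts. *Nrap* minus the mean of 11 cardiomyocyte markers differed from wild-type by -0.52 (null) and -0.61 (double-heterozygous), and *Nrap* minus the mean of the 8 members other than *Xirp2* and *Nrap* by -0.48 and -0.45. In each of these differences all mutant arrays lay below all wild-type arrays, and an exact permutation test (two-sided) returned p = 0.1 for each, the smallest that 3 arrays against 3 allow. *Klhl41*, a kelch protein that binds NRAP, had its null and double-heterozygous arrays below wild-type too (6.61 to 6.75 in wild-type, 5.96 to 6.57 in null, 5.85 to 6.38 in double-heterozygous hearts), with adjusted p-values of 0.903 and 0.347.

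**Figure D2:**
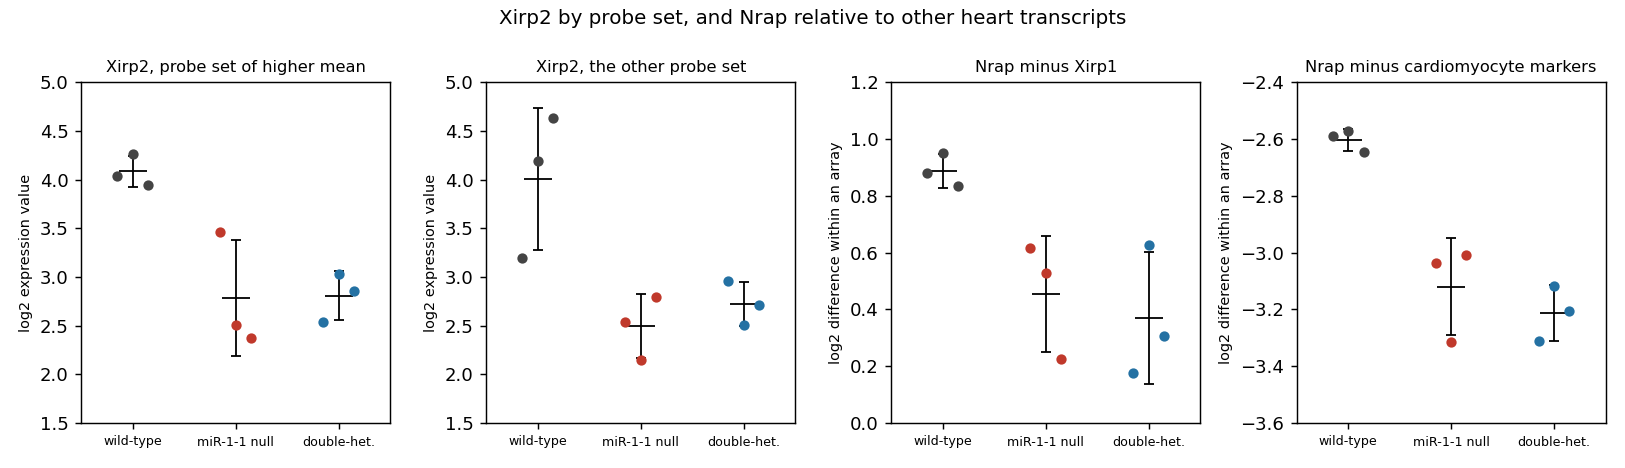
Log2 expression of *Xirp2* by each of its probe sets (left pair of panels), and the log2 difference within an array between *Nrap* and *Xirp1* or the mean of 11 cardiomyocyte markers (right pair), with points for single arrays and bars for the mean ± SD of 3. In each panel the mutant arrays lie below all wild-type arrays, for *Nrap* minus *Xirp1* at 0.17 to 0.63 against 0.83 to 0.95.

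Of the adherens junction genes, *Cdh2* had its lowest levels in double-heterozygous hearts, without passing the test. *Cdh2* encodes N-cadherin, the classical cadherin of cardiomyocytes, and read 8.45, 8.47 and 8.39 in wild-type, 8.42, 8.36 and 8.50 in null and 8.22, 8.18 and 8.22 in double-heterozygous hearts. Null and wild-type arrays were interleaved (log2 fold change -0.01, standard error 0.08), while all 3 double-heterozygous arrays lay below all 6 others. The difference was -0.23 (0.08) from wild-type and -0.22 (0.08) from null hearts, with limma adjusted p-values of 0.380 and 0.629. Its other probe set gave one identical value, 8.22, on 7 of the 9 arrays, 8.37 in wild-type heart 1 and 8.02 in double-heterozygous heart 9, so it showed no such separation (-0.11, standard error 0.09).

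*Ctnna3*, which encodes the alpha-T catenin that joins cadherins to the desmosome in heart, read 6.86, 6.83 and 6.92 in wild-type, 6.90, 6.82 and 7.06 in null and 6.55, 6.66 and 6.87 in double-heterozygous hearts. Double-heterozygous heart 9 lay within the wild-type range and hearts 7 and 8 below it. The log2 fold changes were 0.05 (standard error 0.11) in null and -0.18 (0.11) in double-heterozygous hearts, with adjusted p-values of 0.969 and 0.592.

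Plakoglobin, the product of *Jup*, is shared by adherens junctions and desmosomes. *Jup* read 6.37, 6.54 and 6.55 in wild-type, 6.35, 6.26 and 6.36 in null and 5.98, 6.35 and 6.28 in double-heterozygous hearts. Its mutant arrays all lay below the lowest wild-type array, but by as little as the step from 6.37 to 6.36. The log2 fold changes were -0.17 (standard error 0.12) and -0.29 (0.12), with limma adjusted p-values of 0.912 and 0.420.

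*Dsp* encodes desmoplakin, which anchors desmin filaments to the desmosomal plaque. It read 8.39, 8.35 and 8.36 in wild-type, 8.51, 8.33 and 8.57 in null and 8.01, 8.25 and 8.31 in double-heterozygous hearts. Null and double-heterozygous arrays did not overlap, but by as little as the step from 8.33 to 8.31. Null heart 5 lay below all 3 wild-type arrays. The means of null and double-heterozygous hearts stood on opposite sides of the wild-type mean, at 0.10 (standard error 0.11) and -0.18 (0.11) from it. Their own difference was -0.28 (0.11, 95% confidence interval -0.52 to -0.03), and limma's adjusted p over all genes was 0.633. The exact permutation test of the same arrays gave p = 0.1.

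*Pkp2*, the cardiac plakophilin, varied more within mutants than between genotypes: 6.65, 6.75 and 6.78 in wild-type, 6.96, 6.71 and 6.65 in null and 6.85, 6.64 and 6.49 in double-heterozygous hearts. Its log2 fold changes were 0.05 (standard error 0.12) and -0.07 (0.12), with intervals of -0.23 to 0.32 and -0.35 to 0.21.

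The desmosomal cadherins *Dsg2* and *Dsc2*, the desmoglein and desmocollin of the heart, overlapped between all genotypes. *Dsg2* read 6.03, 5.84 and 5.95 in wild-type, 6.02, 5.83 and 5.91 in null and 5.62, 5.96 and 5.64 in double-heterozygous hearts, a difference of -0.02 (standard error 0.12) and -0.20 (0.12), and its dimmer second probe set of 0.00 and -0.13 (standard error 0.17 each). For *Dsc2* the levels were 5.65, 5.15 and 5.36 in wild-type, 5.22, 5.22 and 5.42 in null and 5.22, 5.09 and 5.00 in double-heterozygous hearts, with differences of -0.10 (0.14) and -0.29 (0.14). The value of 5.22 was identical on 3 arrays, 2 of them null, and wild-type heart 1 was the highest of the 9.

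**Figure D3:**
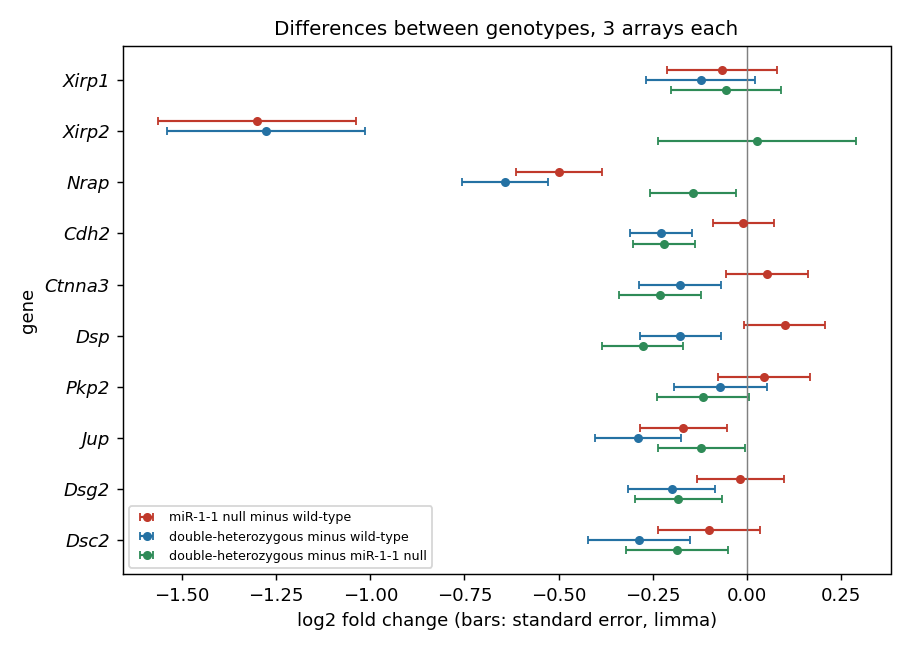
Log2 fold change (horizontal axis) of each of the 10 genes between genotypes, with bars for the standard error of limma's fit over 3 arrays per genotype. *Xirp2* and *Nrap* lie well left of 0 against wild-type in both mutants, at -1.30 and -1.28 and at -0.50 and -0.64, and the other 8 genes lie between -0.29 and 0.10.

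Set against all genes, no member passed an adjusted p of 0.05 in any of the 3 comparisons. The same limma fit called 0 of 22180 genes (0%) in null and 4 (0.018%) in double-heterozygous hearts against wild-type, and 0 (0%) between the mutants, and 1268, 2352 and 1638 genes had an unadjusted p under 0.05. The methods' t-test called 0 genes in each comparison after Benjamini-Hochberg adjustment. The study's own thresholds, an unadjusted p under 0.0025 with a fold above 1.5 or below 0.5, took in 28 genes (0.126%) in null and 120 (0.541%) in double-heterozygous hearts, and of the members *Xirp2* in both, as the earlier results had shown.

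In null hearts 2 of the 10 members, *Xirp2* and *Nrap*, were lower at an unadjusted p under 0.05, against 3.15% of all genes. In double-heterozygous hearts these were joined by *Cdh2* and *Jup*, 4 of 10 against 6.15%, and between the mutants *Cdh2* and *Dsp* were lower in double-heterozygous hearts, 2 of 10 against 3.79%. No member was higher at that level in any comparison. By the arrays alone, all mutant arrays lay below all wild-type arrays for 3 members in null hearts (*Xirp2*, *Nrap*, *Jup*, with 4.63% of all genes) and for 6 in double-heterozygous hearts (also *Xirp1*, *Cdh2* and *Dsp*, with 7.95%), and 2 members lay lower in all double-heterozygous than in all null arrays (*Cdh2* and *Dsp*, with 5.75%). The members were chosen with results of these arrays known, so these shares carry no weight of their own.

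Of the 10 members, 7 had a log2 fold change below 0 in null hearts, where 51.9% of all genes did, and all 10 in double-heterozygous hearts, where 55.3% did. Between the mutants 9 lay below 0, all but *Xirp2*, where 54.5% of genes did. The median over the members was -0.04, -0.21 and -0.16 in these 3 comparisons, and over the 8 without *Xirp2* and *Nrap* it was -0.01, -0.19 and -0.18. Genes of similar brightness were also low in double-heterozygous hearts. At mean levels of 5 to 6, 6 to 7, 7 to 8 and 8 to 9, their median log2 fold change from wild-type was -0.10, -0.10, -0.08 and -0.04, and 60.5% to 74.5% of them were below 0. In null hearts the same medians lay between -0.02 and 0.00. The part of this shift in the members' values was not tested beyond other scalings of the table, of which quantile normalization and cyclic loess each left 2 of the 10, where there had been 4, at an unadjusted p under 0.05 against wild-type.

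Arrays of 1 genotype differed across the members. Null heart 5 was the lowest of its genotype in 7 of 10 members and null heart 6 the highest in 6, and double-heterozygous heart 7 was the lowest in 6. Wild-type heart 1 and double-heterozygous heart 7 also stand apart by *Xist*, the transcript of the inactive X chromosome, at 7.74 and 8.31 against 1.22 to 1.96 in the other 7 arrays, so no null array carried it. Without those 2 arrays the log2 fold changes of *Xirp2* were -1.32 in null and -1.16 in double-heterozygous hearts and those of *Nrap* -0.48 and -0.55. Over all genes the 36 pairs of arrays correlated at 0.982 to 0.988.

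Cardiomyocyte markers were bright and even. The 11 markers, among them *Myh6*, *Tnnt2* and *Actc1*, had a summed linear level of 17700 to 18500 in wild-type, 18300 to 18700 in null and 17600 to 18100 in double-heterozygous hearts, and 0 of 11 had an unadjusted limma p under 0.05 in any comparison. Relative to them *Xirp2* stood at -6.37 to -6.08 in wild-type, -7.97 to -6.91 in null and -7.73 to -7.31 in double-heterozygous hearts. In whole hearts, fewer cells of a type and less RNA per cell cannot be told apart. Since Xin-repeat genes are also expressed in skeletal muscle, the 15 skeletal muscle markers were read as well. Their summed level was 108 to 122, 109 to 119 and 113 to 119, none passed an adjusted p of 0.05, and 4 of them lay at or below the receptor genes' upper quartile in wild-type hearts. The myosin *Myh8* stood at -0.56 (adjusted p = 0.871) in null and 0.05 in double-heterozygous hearts. *Myod1*, a factor that specifies skeletal muscle, stood at 0.51 and 0.30 (limma adjusted p = 0.702 and 0.435), with all arrays of both mutants above wild-type. It was dim, at 2.87 to 2.96 in wild-type, 3.21 to 3.70 in null and 3.21 to 3.27 in double-heterozygous hearts. *Myog*, another such factor, stood at -0.25 and -0.16 with overlapping arrays.

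Markers of other cell types were less even across genotypes. The summed level of the 7 smooth muscle markers was 1160 to 1440 in wild-type, 1960 to 2460 in null and 1840 to 2460 in double-heterozygous hearts. *Cnn1*, *Acta2* and *Myl9* were higher at an unadjusted p under 0.05 in both mutants, with limma adjusted p-values of 0.152 to 0.752. No other marker of this list passed that level. *Myh11* stood at -0.08 in both mutants and *Smtn* at -0.06 and 0.08. *Tagln* stood at 0.31 and 0.21 and *Lmod1* at 0.11 and 0.18. *Myl9* and *Acta2* were the brightest of the 7, at 9.3 and 8.9 on average in wild-type hearts, and weigh most in the sum. The study states that embryonic cardiomyocytes normally express smooth muscle genes. Whether smooth muscle cells or expression in cardiomyocytes lay behind these values was not tested. In double-heterozygous hearts 3 of 8 fibroblast markers (*Dcn*, *Pdgfra* and *Tcf21*) were lower at an unadjusted p under 0.05. So were 3 of 7 leukocyte markers (*Cd68*, *Csf1r* and *Lyz2*), against 6.15% of all genes (smallest limma adjusted p = 0.224). The fibroblast markers *Col1a2* and *Postn* (0.06 each) and the leukocyte marker *Cd14* (0.03) lay above 0 there. Summed fibroblast and leukocyte levels were 2490 to 3030 and 92.9 to 103 there, against 2840 to 3000 and 111 to 155 in wild-type hearts. Endothelial markers summed to 1030 to 1100 in wild-type, 913 to 1030 in null and 927 to 1000 in double-heterozygous hearts, with *Cdh5* lower at that level in null and *Kdr* in double-heterozygous hearts, where the keratin *Krt14* was lower too. Epithelial markers, whose cells also carry desmosomes, reached 160 in 1 wild-type heart through the lung gene *Scgb1a1* (6.50 there, at most 2.07 in null and 1.91 in double-heterozygous hearts) and lay between 52.4 and 62.8 in the mutants, while the defining markers *Epcam* and *Cdh1* stood near 1.4 to 1.7 on average. Brown fat markers summed to 45.5 to 93.7 in wild-type, 55.3 to 74.6 in null and 50.1 to 61.3 in double-heterozygous hearts, and of 5 blood cell markers only *Slc4a1* was measured (summed level 10.3 to 12.8). The part of these cell types in the members' values was not tested.

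Genes of proteins reported to bind Xin or NRAP were read next. Of 12 listed partners, 1 was lower at an unadjusted p under 0.05 in null hearts (*Pgm5*, a phosphoglucomutase relative at adhesion sites) and 4 in double-heterozygous hearts. For this list and those below, the shares of all genes lower at that level were 3.15% and 6.15%. After adjustment 0 partners were called, and the medians were -0.07 and -0.17, beside -0.01 and -0.02 over all genes. Genes at mean levels of 5 to 8, where *Enah*, *Vcl* and *Klhl41* lie, had double-heterozygous medians of -0.10 to -0.08. *Enah*, which encodes the actin-elongating protein Mena and binds Xin, stood at -0.35 (standard error 0.10, adjusted p = 0.330), and *Vcl*, the adaptor vinculin, at -0.32 (0.10, adjusted p = 0.332). All double-heterozygous arrays lay below all wild-type arrays for both, whereas null arrays overlapped wild-type. *Klhl41*, given above, and *Flnc*, filamin C, were the other two.

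Among 10 other adherens junction genes, *Vcl* and *Tjp1*, the scaffold ZO-1, were lower at that level in double-heterozygous hearts and none in null hearts (medians 0.01 and -0.09). *Tjp1* stood at -0.30 (adjusted p = 0.359) and *Pkp4*, a plakophilin of the same junctions, at -0.26 (adjusted p = 0.495). The 8 other cadherins had medians of 0.06 and -0.04, with the endothelial *Cdh5* at -0.25 (adjusted p = 0.871) in null hearts. *Cdh11*, a cadherin of mesenchymal cells, stood at 0.36 and 0.36 (adjusted p = 0.903 and 0.525), and *Cdh15*, of skeletal muscle, at 0.24 and -0.04. *Cdh15* was dim, at 2.16, 2.40 and 2.12 on average in wild-type, null and double-heterozygous hearts.

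Of 15 other desmosome genes, many of them epidermal, 0 passed an unadjusted p of 0.05 in null and 3 in double-heterozygous hearts, all lower. *Des*, the intermediate filament desmin, stood at -0.23 (adjusted p = 0.376), *Tmem43*, a membrane protein linked to inherited cardiomyopathy in humans, at -0.37 (0.443) and *Evpl*, envoplakin, at -0.28 (0.446). *Evpl* was dim, at 2.6, 2.4 and 2.3 on average in wild-type, null and double-heterozygous hearts. The list medians were 0.03 and -0.03.

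In the list of gap junction and channel genes, *Gja1*, which encodes connexin 43, the main channel of the disc, read 8.83 to 9.28 in wild-type, 9.35 to 9.54 in null and 9.19 to 9.45 in double-heterozygous hearts. It stood at 0.38 (standard error 0.13, adjusted p = 0.871) in null hearts, where all arrays lay above wild-type, and at 0.22 (0.13, adjusted p = 0.580) in double-heterozygous hearts, where they overlapped. *Gja5*, connexin 40 of the conduction system and atria, stood at 0.29 and 0.21, and *Fgf13*, a fibroblast growth factor homologous factor that stays inside the cell, at -0.11 and -0.25. The 7 genes read for this list had medians of -0.06 and -0.07.

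The 15 measured costamere and integrin genes, which tie the sarcomere to the cell's flank, had medians of 0.05 and -0.16. *Itga7*, the laminin-binding integrin chain of muscle, stood at -0.41 and -0.48 (standard error 0.15 each, adjusted p = 0.871 and 0.334), with all arrays of both mutants below wild-type, and *Sgca*, alpha-sarcoglycan, at -0.11 and -0.31. Of the nebulin family, to which *Nrap* is related, *Nebl* stood at 0.12 and 0.00, *Neb* at -0.10 and -0.11 and *Lasp1* at -0.24 and -0.33. None passed the adjusted threshold. *Neb* and *Lasp1* were dim. *Lasp1* averaged 2.48 in wild-type, 2.24 in null and 2.15 in double-heterozygous hearts, and *Neb* gave 1 identical value, 3.12, on all null arrays.

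Of 10 transcription factors that act on cardiac muscle genes, none had an unadjusted p under 0.05 in null hearts and 2 were lower in double-heterozygous hearts, *Mef2d* at -0.41 (standard error 0.12, adjusted p = 0.332) and *Srf*, serum response factor, at -0.46 (0.16, adjusted p = 0.351). *Myocd*, the coactivator myocardin, stood at 0.25 and 0.08. Of 9 stretch and stress genes, *Myh7*, the slow myosin heavy chain, was at -1.07 (0.37, adjusted p = 0.868) in null and -0.86 (0.37, adjusted p = 0.451) in double-heterozygous hearts with overlapping arrays, *Rcan1*, a calcineurin regulator, at -0.29 and -0.50, and *Ankrd2* at 0.08 and 0.25. *Ankrd2* was dim, at 1.67, 1.75 and 1.92 on average in wild-type, null and double-heterozygous hearts. The receptor genes' upper quartile was 1.74, 1.78 and 1.95 there. The list medians of -0.29 and -0.26 compare with -0.01 and -0.02 over all genes.

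The genes whose profile over the 9 arrays was most like that of *Xirp2* were ranked by Pearson's r among 10332 named genes at or above the median level, leaving the members out. The first 6 were *Suclg2* (r = 0.948), a subunit of succinyl-CoA ligase, *Alkbh3* (0.943), a DNA and RNA demethylase, *B2m* (0.926), the light chain of MHC class I, *Mgst3* (0.920), a microsomal glutathione transferase, *Xaf1* (0.913), an interferon-inducible regulator of apoptosis, and *Tsc2* (0.902), which restrains mTOR. All points share the same 9 libraries and the same split between wild-type and mutants. With each genotype's mean removed, r was 0.794, 0.878, 0.820, 0.545, 0.730 and 0.618 in the same order. *Xaf1* was at 5.88 ± 0.14 in wild-type, 4.96 ± 0.59 in null and 4.88 ± 0.34 in double-heterozygous hearts, and *B2m* at 10.36 ± 0.35, 9.69 ± 0.32 and 9.77 ± 0.16 (SD, n = 3 each). Among the members *Nrap* came closest to *Xirp2* (r = 0.895, with 0.116% of the ranked genes higher), then *Jup* (0.721), whereas *Xirp1* was at 0.092. For the members r was not computed with each genotype's mean removed. *Nrap* and *Xirp2* were both low in both mutants, so their r includes that split.

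*Xirp2* lies on chromosome 2, which also carries *miR-1-1*. Of the 6 genes most like it, *Alkbh3* and *B2m* lie there too, and 8.04% of the ranked genes do. The other members lie on chromosomes 9 (*Xirp1*), 10 (*Ctnna3*), 11 (*Jup*), 13 (*Dsp*), 16 (*Pkp2*), 18 (*Cdh2*, *Dsg2* and *Dsc2*) and 19 (*Nrap*). Chromosome 18 carries *miR-1-2*, whose targeted allele only the double-heterozygous hearts have. There, *Cdh2* stood at -0.23 in those hearts and at -0.01 in null hearts. *Dsg2* stood at -0.20 and -0.02, and *Dsc2* at -0.29 and -0.10. All members but *Xirp2* were lower in double-heterozygous than in null hearts, among them *Dsp* (-0.18 and 0.10) and *Ctnna3* (-0.18 and 0.05) on other chromosomes. On a mixed background, alleles of either strain that travel with a targeted chromosome and the targeted allele itself cannot be told apart in these arrays. How far the genes lie from the *miR-1* loci was not measured, and a shared chromosome alone does not show close linkage.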

How the data were processed

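Hearts of 3 genotypes were measured on Affymetrix mouse Gene ST arrays, 3 per genotype. The authors extracted total RNA, removed genomic DNA, amplified the RNA and, per the labels, normalized the arrays by RMA with Affymetrix Power Tools 1.12.0. The deposited log2 values, 1 per probe set, were used as given. The sources used here do not give the genome build of the probe sets. Of 41345 probe sets, 23521 had 1 gene symbol, 1820 several and 16004 none in the platform annotation, and the probe set with the highest mean stood for each of 22180 genes. Arrays carry no read depth, so their number limits the precision.

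A linear model with a separate mean for each genotype was run on the 9 arrays in limma 3.58.1 (lmFit, eBayes; R 4.3.3), with Benjamini-Hochberg adjustment over all genes and 3 contrasts. Calls were made at an adjusted p of 0.05 and, apart, at the study's thresholds. The fit was tested on simulated data with known fold changes. Single values were compared with exact permutation tests over arrays. Python 3.11.15 with matplotlib 3.10.9 drew the plots. Members and lists were chosen with earlier results of these data known. Named were the 10 members, up to 3 genes per list with the smallest p in either comparison with wild-type, the most and least abundant markers, and the 6 genes most correlated with *Xirp2*. Other genes at an unadjusted p under 0.05 were named after their values were seen. Alternatives covered moderation, scaling, probe set choice, sex-linked transcripts, thresholds and leaving out each array. The replicate numbers differ between genotypes and pair no arrays.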

Additional observations from a re-analysis of the deposited data

How the results depend on the processing

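The count of members past an adjusted p of 0.05 was 0 in each comparison under all alternatives run. The threshold of 0.1 was applied to the main model, where no member passed it, and *Nrap* in double-heterozygous hearts was below it with an intensity trend (0.0919) and among genes at or above the median level (0.0961). Of the members' 223 log2 fold changes under alternatives in each comparison, 14, 3 and 7 changed sign (null and double-heterozygous against wild-type, then double-heterozygous against null), none of them called. Over 23 fits the adjusted p of *Nrap* ran from 0.488 to 0.975 in null and from 0.0919 to 0.582 in double-heterozygous hearts.

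Members lower at an unadjusted p under 0.05 in double-heterozygous against wild-type hearts numbered 2 under quantile normalization, cyclic loess, or without the arrays that carry *Xist*. Against null hearts they numbered 1 with only these genotypes fitted, with the unpaired t-test, with the mean of a gene's probe sets or without the *Xist* arrays. They numbered 0 under quantile normalization, cyclic loess or relative to the cardiomyocyte markers. Leaving out 1 array gave 0 to 3, with 0 without null heart 6 and 1 without null heart 4 or double-heterozygous heart 7.

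Over all genes, the 4 calls in double-heterozygous hearts became 1 with only these genotypes fitted and 0 with the unpaired t-test or without the *Xist* arrays. They became 2 among genes at or above the median level, and 14 at an adjusted p of 0.1, where null hearts had 2. Leaving out 1 array gave 0 to 13, with 0 without heart 1, 3, 4 or 7, 1 without heart 2, 2 without heart 9, 9 without heart 6 and 13 without heart 8. In null hearts it gave 0 or 1 (without heart 8). The study's thresholds took in 5 and 29 genes in null and double-heterozygous hearts with the unpaired t-test, and 17 and 55 among genes at or above the median level. With a fold of 1.5 either way they took in 44 in null hearts. Leaving out 1 array gave 24 to 48 in null hearts, with 48 without heart 1 and 46 without heart 6.

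Values near 0 changed sign. Without the *Xist* arrays null against wild-type became 0.000205 for *Cdh2*, 0.0265 for *Dsg2* and 0.0298 for *Dsc2*. For *Dsg2* it was 0.00545 under quantile normalization and 0.000442 by the other probe set. *Pkp2* in double-heterozygous hearts became 0.0202 under quantile normalization and 0.0152 under cyclic loess, and *Xirp1* between the mutants 0.0128 and 0.0152. Leaving out 1 array gave, in null hearts, -0.232 to 0.069 for *Xirp1*, -0.0448 to 0.0232 for *Cdh2*, -0.0131 to 0.107 for *Ctnna3*, -0.048 to 0.109 for *Pkp2*, -0.0694 to 0.0271 for *Dsg2* and -0.219 to 0.0298 for *Dsc2*. It gave -0.168 to 0.0156 for *Pkp2* in double-heterozygous hearts, and between the mutants -0.192 to 0.109 for *Xirp1* and -0.178 to 0.366 for *Xirp2*. Against wild-type *Xirp2* stayed between -1.64 and -1.10 in null and between -1.39 and -1.14 in double-heterozygous hearts. The cause of these shifts was not tested. Fits that leave 2 arrays of a genotype share the spread of the others, and the dim *Xirp2* probe sets limit its fold change.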
